A study of Mus musculus with 51 samples.

Results

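The libraries described here were made from Smchd1 wt mouse embryonic stem cells (mESCs) immediately before, and 12 h into, the activation of Wnt signalling during differentiation towards neuromesodermal progenitors (NMPs). They were chosen by their labels as the wild-type libraries of day 2 (n = 4) and day 2.5 (n = 4), 8 of the 51 samples of the series. The cells carried 1 floxed and 1 unmodified Smchd1 allele (Smchd1 fl/+), and the labels of 7 of the 8 libraries give male cells of a C57BL/6/Cast F1 background. Replicate 3 of day 2 carries the same genotype label but no strain or sex. Until day 2 the cells were held in N2B27 medium with 10 ng/mL of basic FGF, and on day 2 the medium was replaced by the same medium with 5 µM of CHIR99021 added, so the day 2.5 cells had also been in culture for 12 h longer. Before differentiation the mESCs had been kept in 2i + LIF medium, which itself contains CHIR99021, and were moved out of it stepwise before day 0. No day 2.5 library without CHIR99021 was compared, and the compound and the time in culture cannot be told apart here. By their titles, replicates 1 to 3 come from line 1 and replicate 4 from line 2, while the study's legend speaks of technical replicates of a pair of lines. Nothing names separate cultures, so the p-values measure only the spread between these libraries, which may be technical.

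CHIR99021 is an inhibitor of GSK3, the kinase that marks beta-catenin for destruction. When GSK3 is blocked, beta-catenin accumulates, enters the nucleus and works with TCF/LEF factors at target genes, among them Axin2, which feeds back negatively on the pathway. In the posterior of the gastrulating embryo, Wnt and FGF signals maintain NMPs, cells that hold the mesodermal factor T and the neural factor Sox2 at the same time and that give rise to spinal cord and paraxial mesoderm. The Cdx factors act downstream of Wnt in this tissue, and Hox genes are switched on there in the order in which they lie along each cluster, from Hox1 towards Hox13.

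Expression was deposited as log2 RPKM, that is, read counts scaled by transcript length and library size, for 34 pluripotency and differentiation factors and for 39 Hox genes. In these values a gene without any read is not blank but carries the value of 0.9 reads, so an unread gene is listed at a higher level in a shallow library than in a deep one. Working back from the values to whole reads, the day 2 columns of the Hox genes came to about 30.7, 13.8 and 13.4 M reads (M, mega) in replicates 1 to 3 and to only 0.346 M in replicate 4, and those of day 2.5 to 29.8, 37.8, 1.98 and 17.3 M in replicates 1 to 4. The factor column of day 2 replicate 4 was 7.76-fold deeper than its Hox column, at about 2.69 M reads. For this, the other 7 libraries were taken to have the same depth for factors as for Hox genes. On that basis 16 of the 34 factor genes gave whole reads. Replicate 4 of day 2 held 9 Hox reads in all, against 192 to 203 in the other day 2 libraries, and the Hox fit was therefore made with and without it. A second library that stood apart was day 2 replicate 3, which had the lowest value of its day in 24 of the 34 factor genes.

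After 12 h of CHIR99021, 7 of the 8 factors that mark the primitive streak and the NMP state rose, whereas most pluripotency genes did not pass the test in either direction. Of the 34 factor genes, 13 were higher at day 2.5 and 1 was lower by limma with Benjamini-Hochberg adjustment at 0.05, which is 38.2% and 2.94% of the genes tested. In 11 genes (32.4%) every day 2.5 library lay above every day 2 library, and in 0 genes did all lie below (0%). The median difference over all 34 genes was 0.61 on the log2 scale. With 1 library left out it ran from 0.32, without day 2 replicate 3, to 0.74, without day 2 replicate 2. These are whole cultures, so more cells expressing a gene and more RNA of it per cell cannot be told apart. The plot of the called genes by library shows each value.

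**Figure D1:**
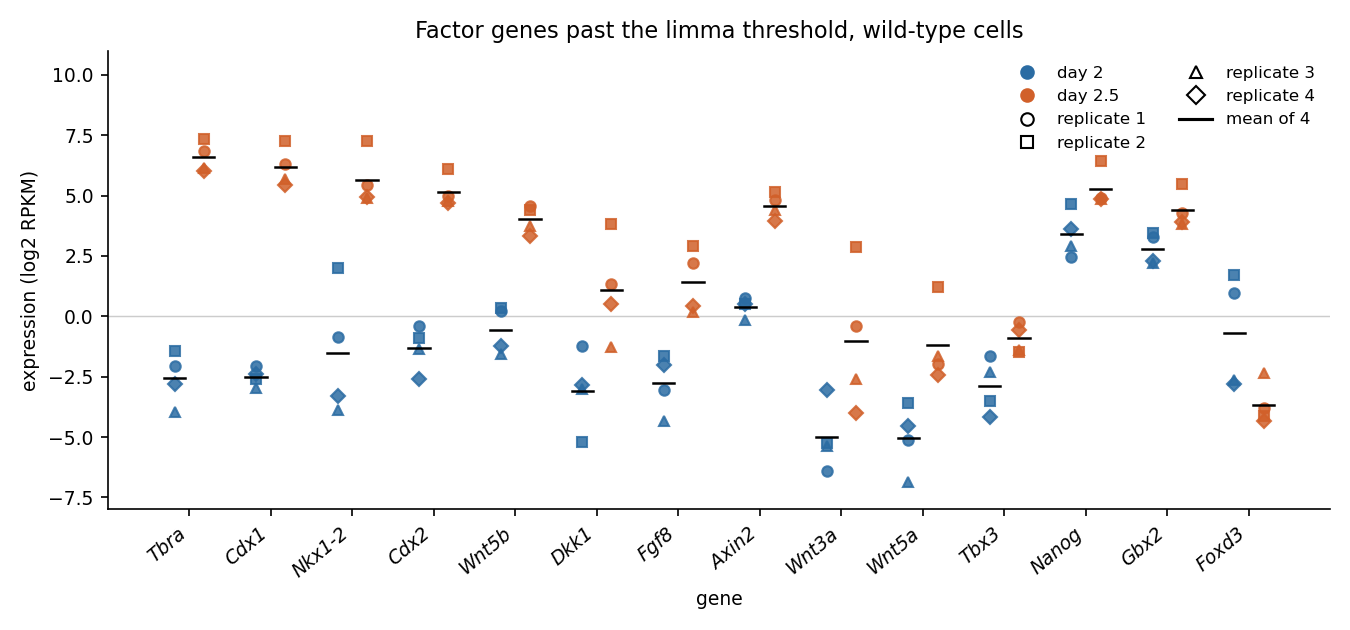
Expression of the 14 factor genes past the limma threshold, in log2 RPKM (vertical axis), for each wild-type library of day 2 (blue) and day 2.5 (orange). Marker shapes give the replicate and the black lines the mean of 4 libraries. The day 2.5 libraries lie above all day 2 libraries in 11 of the genes, and overlap with them in Dkk1, Wnt3a and Foxd3.

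The largest difference was that of T, listed as Tbra in the files and lying on chromosome 17 from 8434423 to 8442496 (GRCm38, forward strand), a T-box factor needed for mesoderm formation. Tbra stood at -2.07, -1.42, -3.96 and -2.79 log2 RPKM in replicates 1 to 4 of day 2, and at 6.86, 7.33, 6.15 and 6.04 in replicates 1 to 4 of day 2.5. The libraries of each day kept together and the days did not overlap. In whole reads Tbra went from 17, 12, 2 and 0 to 8034, 14108, 325 and 2630 in the same order. The difference was 9.15 ± 0.59 on the log2 scale (SE, n = 4 and 4, limma with Benjamini-Hochberg adjusted p = 3.1e-07), or 569-fold, a fold that rests in part on the value given to the unread replicate 4.

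Because Tbra led the factor genes and Hoxb1, described below with its cluster, led the Hox genes, the sequences before their starts are shown here. Both are the 250 bases upstream of the RefSeq start on GRCm38.p6, written 5′ to 3′ along the gene's strand, and the last few bases of the Hoxb1 window lie inside the gene as the files place it. The Tbra window is chr17:8434173-8434422 and that of Hoxb1 is chr11:96365508-96365757, both on the forward strand. Capitals mark a match to the TCF/LEF core CTTTGA or its reverse complement TCAAAG.

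Tbra: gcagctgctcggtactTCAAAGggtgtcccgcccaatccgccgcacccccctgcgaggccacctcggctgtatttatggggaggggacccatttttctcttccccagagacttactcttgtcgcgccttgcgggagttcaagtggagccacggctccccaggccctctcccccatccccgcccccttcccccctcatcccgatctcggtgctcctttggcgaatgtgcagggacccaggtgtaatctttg
Hoxb1: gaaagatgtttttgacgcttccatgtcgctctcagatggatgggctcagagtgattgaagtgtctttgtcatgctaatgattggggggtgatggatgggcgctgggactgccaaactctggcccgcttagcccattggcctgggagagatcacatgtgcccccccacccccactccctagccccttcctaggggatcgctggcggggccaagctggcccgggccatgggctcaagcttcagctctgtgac

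The Tbra window held 1 match, on the reverse strand and starting 234 bases before the gene, and the Hoxb1 window held 0. Both strands were searched, and 13.83% of the 32851 promoters in the table held the core in a window of this length. Windows were listed for 9 of the 13 genes called higher, and 3 of these genes (Tbra, Dkk1 and Wnt5b, the last at 1 of its starts) held a match, 3 of 12 windows (25%). A match in this window is a description of the sequence and says nothing of binding.

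Most of the other NMP factors also rose. Cdx1, a caudal homeobox factor, was at -2.05, -2.60, -2.97 and -2.39 log2 RPKM in replicates 1 to 4 of day 2, and at 6.30, 7.28, 5.70 and 5.44 at day 2.5. Its step was 8.68 ± 0.49 (SE, limma adjusted p = 1.66e-07). The listed day 2 values had the smallest SD of the called genes, 0.38 (n = 4). They rest on only 13, 4, 3 and 0 reads in replicates 1 to 4, so replicate 4 is listed at the value of an unread gene. Cdx2, the related factor that also drives posterior Hox expression, rose from -0.42, -0.88, -1.34 and -2.60 to 4.98, 6.10, 4.79 and 4.68, a difference of 6.45 ± 0.56 on the log2 scale (SE, limma adjusted p = 3.76e-06). In both Cdx genes the lowest day 2.5 library lay far above the highest library of day 2.

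Nkx1-2, a homeobox gene of the caudal epiblast and NMPs, was the most variable of them before CHIR99021 was added. It stood at -0.87, 2.01, -3.87 and -3.28 log2 RPKM at day 2, in 55, 182, 3 and 0 reads, and at 5.44, 7.27, 4.90 and 4.96 at day 2.5. Replicate 2 was the highest library on both days. The difference was 7.14 ± 1.16 (SE, limma adjusted p = 0.000528). Fgf8, the FGF ligand of the caudal embryo, went from -3.05, -1.64, -4.33 and -2.01 to 2.21, 2.91, 0.16 and 0.41, a step of 4.18 ± 0.78 (SE, limma adjusted p = 0.00132). Here replicates 1 and 2 reached higher levels than replicates 3 and 4 at day 2.5, although all 4 lay above day 2. In reads Fgf8 was at 5, 6, 0 and 0 at day 2 and at 186, 383, 3 and 31 at day 2.5. Replicates 3 and 4 of day 2 are thus listed at the value of an unread gene.

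Sox2, the neural partner of T in NMPs, did not pass the test. It was at 5.01, 6.17, 3.78 and 5.0 log2 RPKM at day 2 and at 3.54, 4.63, 4.96 and 5.18 at day 2.5, and the days overlapped. The difference was -0.41 ± 0.58 on the log2 scale (SE, limma adjusted p = 0.624). At day 2.5 both Tbra and Sox2 were present in every library. Of the 8 NMP and streak genes in the table (Tbra, Sox2, Nkx1-2, Cdx1, Cdx2, Wnt3a, Wnt5a and Fgf8), 7 rose, 0 fell and only Sox2 was not called, with a median difference of 5.31 against 0.61 over the whole table. With 1 library left out at a time 6 or 7 of the 8 were called, Wnt3a being the gene lost, and with log2(RPKM + 1) 5 were called, without Wnt3a and Wnt5a.

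Among the parts of the Wnt pathway itself, the feedback genes and several ligands rose, while the kinase and beta-catenin genes did not pass the test. Axin2, the scaffold that limits beta-catenin, stood at 0.75, 0.50, -0.16 and 0.51 log2 RPKM at day 2 and at 4.83, 5.14, 4.39 and 3.95 at day 2.5. Its step of 4.18 ± 0.43 (SE, limma adjusted p = 1.47e-05) is an 18.1-fold increase, and the 2 days were far apart. Dkk1, a secreted inhibitor of Wnt co-receptors, was between -5.22 and -1.22 at day 2 and between -1.27 and 3.84 at day 2.5, overlapping by a small margin in replicate 3 of day 2.5. The difference was 4.19 ± 1.08 (SE, limma adjusted p = 0.011), and the reads were 183, 1314, 2 and 60 at day 2.5 in replicates 1 to 4.

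The ligand genes differed in how evenly they rose. Wnt5b was at 0.22, 0.33, -1.57 and -1.25 log2 RPKM at day 2 and at 4.58, 4.39, 3.75 and 3.33 at day 2.5, a difference of 4.58 ± 0.56 (SE, limma adjusted p = 5.37e-05). Wnt5a, like Wnt5b a ligand known mainly for signalling without beta-catenin, went from -5.10, -3.59, -6.86 and -4.55 to -1.98, 1.23, -1.63 and -2.44, a difference of 3.82 ± 0.89 (SE, limma adjusted p = 0.00642). All 4 libraries of day 2.5 were above day 2 in both genes, with replicate 2 well above the others in Wnt5a. The reads of Wnt5a were 7, 9, 0 and 0 at day 2 and 59, 693, 5 and 25 at day 2.5, in replicates 1 to 4. Wnt3a, the ligand that signals through beta-catenin in the tailbud, was at -6.41, -5.25, -5.36 and -3.04 at day 2 and at -0.41, 2.85, -2.61 and -3.99 at day 2.5. Its reads show where these values come from, being 1, 1, 0 and 0 at day 2 and 62, 754, 0 and 3 at day 2.5, so replicate 3 of day 2.5 and replicates 3 and 4 of day 2 are listed at the value of an unread gene. The step of Wnt3a was 3.98 ± 1.31 (SE, limma adjusted p = 0.0315), and its call was lost when day 2 replicate 1, 2 or 3, or day 2.5 replicate 1 or 2, was left out.

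Ctnnb1, which encodes beta-catenin, was measured between 4.63 and 7.48 log2 RPKM at day 2 and between 6.88 and 7.64 at day 2.5, a difference of 0.88 ± 0.61 (SE, limma adjusted p = 0.334). Its low end at day 2 was replicate 3. Gsk3b, the gene of 1 of the 2 GSK3 kinases, differed by 0.08 ± 0.42 (SE, limma adjusted p = 0.885). Wnt4 and Wnt7b were not called either, at -0.55 ± 0.70 and 0.20 ± 0.56. Over the 9 Wnt pathway genes of the table, 5 rose and 4 were not called, with a median of 3.82. Over all 34 factor genes 13 rose, with a median of 0.61. With 1 library left out 4 or 5 of the 9 were called. With log2(RPKM + 1), a scale on which low genes move less, 2 of the 9 were called with a median of 0.87. The calls of Dkk1, Wnt3a and Wnt5a were lost there. On that scale 9 of all 34 genes rose, with a median of 0.42, so the list held no larger share of calls than all genes. Of the 6 genes listed as responding to Wnt (Tbra, Cdx1, Cdx2, Axin2, Wnt3a and Nkx1-2), all 6 rose, and 5 or 6 were called with 1 library left out. The lists share members, so their counts are not independent of each other.

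The plot of all 34 differences shows how the table splits. The 20 genes that were not called ran from -1.03 for Fbxo15 to 0.88 for Ctnnb1.

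**Figure D2:**
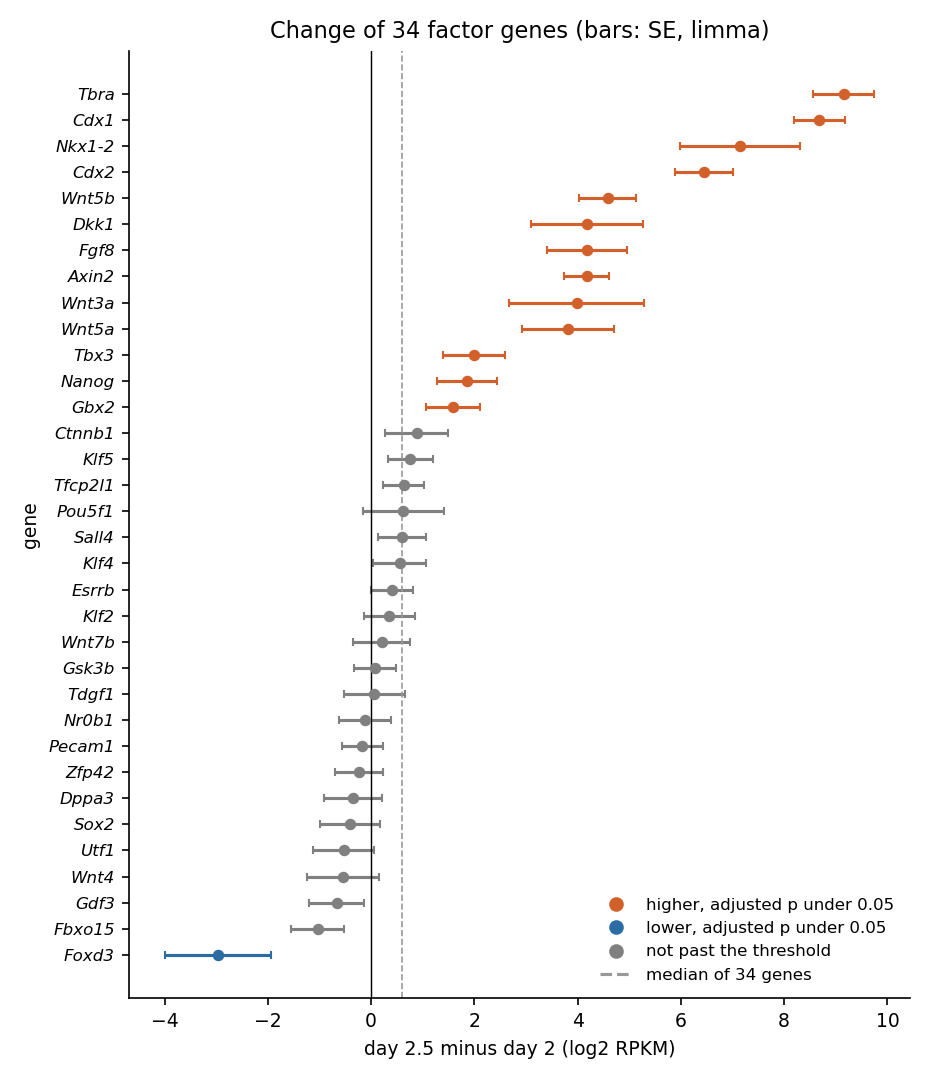
Difference between day 2.5 and day 2 for each of the 34 factor genes, in log2 RPKM (horizontal axis), with the limma standard error as bars. Orange marks the 13 genes called higher, blue the 1 called lower and grey the others, and the dashed line is the median of 0.61. The 10 largest differences, down to 3.82 for Wnt5a, belong to genes of the Wnt and NMP lists.

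Most of the pluripotency genes did not pass the test. In the whole table, which includes them, 20 of 34 genes did not pass either, and the median was 0.61. Of the 10 naive genes in the table, 2 rose (Tbx3 and Gbx2), 0 fell and 8 were not called, with a median of 0.48. Of the 8 general pluripotency genes, 1 rose (Nanog), 1 fell (Foxd3) and 6 were not called, with a median of -0.18 that ran from -0.56 to 0.15 with 1 library left out. In the limma fits without day 2 replicate 4, and without day 2.5 replicate 1, 0 of the 10 naive genes passed.

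Nanog, a homeodomain factor of the pluripotent state that is also expressed in the posterior epiblast, was at 2.46, 4.64, 2.91 and 3.62 log2 RPKM at day 2 and at 4.88, 6.43, 4.86 and 4.88 at day 2.5. The days did not overlap, but replicate 2 of day 2 lay just below the lowest libraries of day 2.5. The difference of 1.86 ± 0.59 (SE, limma adjusted p = 0.0304) is 3.62-fold. It was no longer past the threshold without day 2 replicate 1 or 3, or without day 2.5 replicate 1 or 2. Tbx3, a T-box factor of naive cells, rose from -1.65, -3.52, -2.30 and -4.15 to -0.23, -1.46, -1.39 and -0.55, a difference of 2.00 ± 0.61 (SE, limma adjusted p = 0.0266). Its call was lost without day 2 replicate 2 or 4, and without day 2.5 replicate 1 or 4. Gbx2, a homeobox gene of naive cells and of the early posterior neural plate, lay between 2.20 and 3.44 at day 2 and between 3.84 and 5.50 at day 2.5 (difference 1.58 ± 0.52, SE; limma adjusted p = 0.0315). The call of Gbx2 was lost without day 2 replicate 3 or 4, and without day 2.5 replicate 1 or 2.

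Pou5f1, the core pluripotency factor Oct4, was at 8.56, 8.21, 4.88 and 8.01 log2 RPKM at day 2 and at 8.56, 8.57, 7.80 and 7.22 at day 2.5. Replicate 3 of day 2 was by far the lowest of the 8 libraries. The difference was 0.62 ± 0.78 (SE, limma adjusted p = 0.615) with all libraries and -0.22 without that replicate. The other not called pluripotency genes were between Klf5, at 0.76 ± 0.43, and Fbxo15, at -1.03 ± 0.51 (SE, limma adjusted p = 0.162).

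The only gene called lower, Foxd3, a forkhead factor that maintains pluripotency, was uneven at day 2. It was between -2.79 and 1.72 log2 RPKM at day 2 and between -4.33 and -2.36 at day 2.5, and the days overlapped. In reads it was at 140, 106, 5 and 0 in replicates 1 to 4 of day 2 and at 5, 5, 0 and 2 at day 2.5, so replicates 1 and 2 of day 2 were high and the other 6 libraries low. The difference was -2.97 ± 1.03 (SE, limma adjusted p = 0.0379), and its adjusted p lay above 0.05 without day 2 replicate 1 or 2, or without day 2.5 replicate 1, 2 or 4. The value of 0 reads in day 2.5 replicate 3 is listed above those of the deeper day 2.5 libraries.

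In the called genes the libraries of day 2.5 did not share a level. Replicate 2 was the highest of its day in 11 of the 13 genes that rose, by a median of 1.48 log2 units over the mean of the other 3 libraries, and replicate 4 was the lowest in 7. Without replicate 2 of day 2.5, 10 genes were called higher and 0 lower.

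The same step in maternal null cells (Smchd1 mat del, in which the oocyte's allele was removed by Zp3-Cre, which is active in growing oocytes) was compared by the interaction of genotype and day, over 4 libraries at day 2 and 3 at day 2.5. Tbra rose by 8.67 log2 units there, Cdx2 by 6.03 and Axin2 by 4.02, while Nanog differed by 1.17 log2 units without being called (limma adjusted p = 0.184). The interaction passed the threshold in 0 of 34 factor genes (0%), with 0 genes at an unadjusted p under 0.05 and a lowest limma adjusted p of 0.978. Standard errors of the differences between the steps ran from 0.50 to 2.18, so a gene that misses the threshold is not shown to step alike in both genotypes. The maternal null cells, labelled Smchd1 del/+, share neither libraries nor lines with the wild-type cells.

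Among the Hox genes, Hoxb1 rose most, and Hoxb1 and Hoxb2 stood clear of day 2 in every library. With all 8 libraries, limma called 1 of 39 Hox genes higher (2.56%) and 0 lower (0%), with 7 higher and 0 lower at an unadjusted p under 0.05. All 4 day 2.5 libraries lay above day 2 in 3 genes (7.69%), Hoxb1 and Hoxb2 among them, and below it in 0 (0%). Without day 2 replicate 4, 23 genes were called higher (59%) and 0 lower (0%), and 24 did not overlap (61.5%). By the titles, that fit holds no day 2 library of line 2, although day 2.5 keeps its own. It therefore cannot speak for the step in line 2. Among the 24 are Hoxa2, Hoxa4, Hoxa9, Hoxa10, Hoxb5, Hoxb7, Hoxc9, Hoxd4 and Hoxd9, all unread in day 2.5 replicate 3. In these genes that library lies above day 2 only at the value of an unread gene. The plot of the Hox genes by library shows that replicate 4 of day 2 had the highest listed value of its day. This held in all 39 genes, of which 37 were unread in that library. Its value is that of an unread gene in every Hox gene given library by library below.

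**Figure D3:**
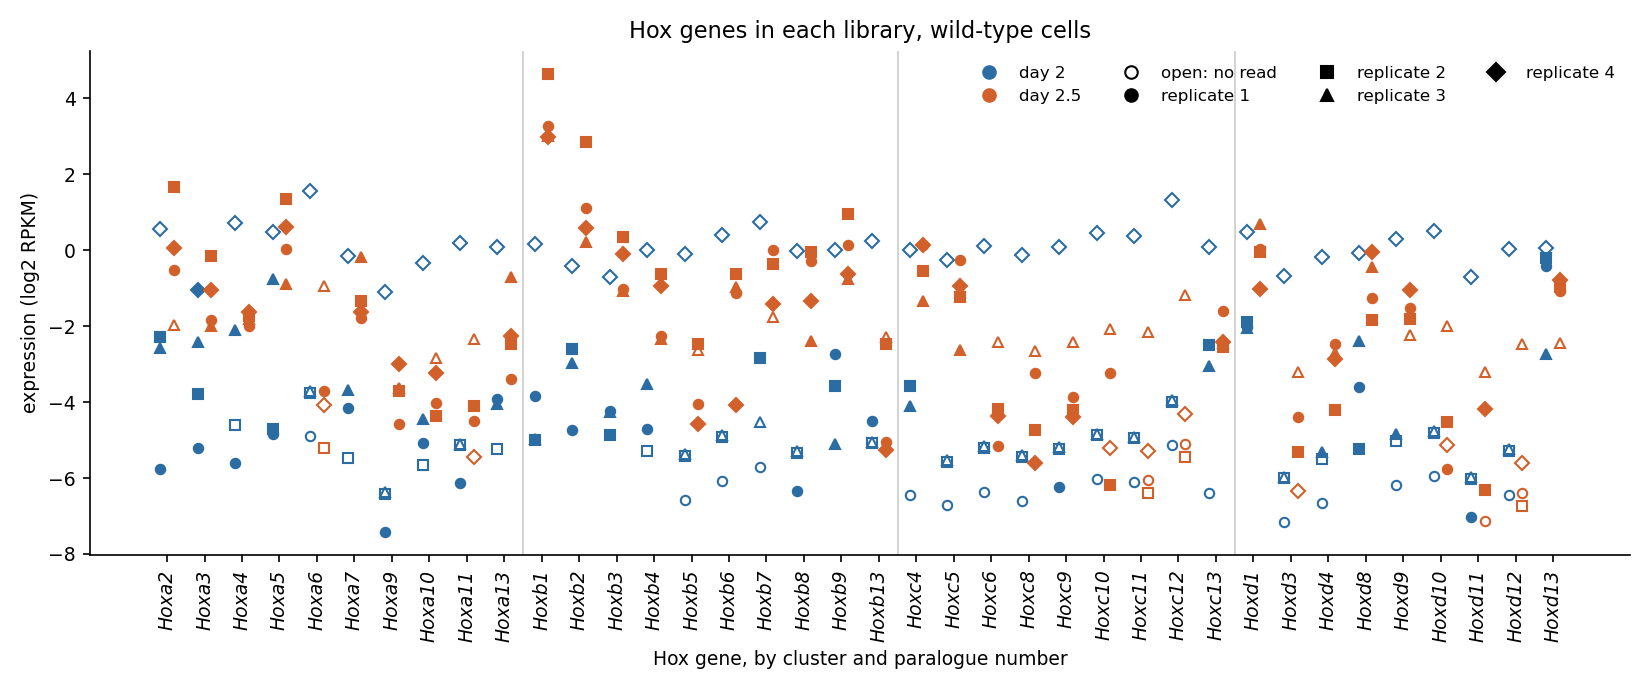
Expression of the Hox genes in log2 RPKM (vertical axis) in each wild-type library of day 2 (blue) and day 2.5 (orange), ordered by cluster and paralogue number. Marker shapes give the replicate and open markers a gene without any read in that library. The diamonds of day 2 replicate 4 lie at the top of their day in each gene shown, and below all 4 day 2.5 values in Hoxb1 and Hoxb2.

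Hoxb1, on chromosome 11 from 96365752 to 96368256 (GRCm38), is the first gene of its cluster and is known for its role in the hindbrain. It was at -3.84, -5.00, -4.96 and 0.16 log2 RPKM in replicates 1 to 4 of day 2 and at 3.27, 4.65, 3.01 and 2.98 at day 2.5. In reads this was 5, 1, 1 and 0 against 667, 2204, 37 and 316. The step was 6.89 ± 1.42 with all libraries (SE, limma adjusted p = 9.51e-05) and 8.08 ± 0.87 without replicate 4 (limma adjusted p = 9.79e-16), and every setting except the exact permutation test called it. Limma gave all Hox genes a common variance, so each Hox p-value here rests on a spread pooled over genes. So small a p-value is more than these few libraries of a single gene can bear.

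Hoxb2, the neighbour of Hoxb1, went from -4.74, -2.59, -2.96 and -0.42 log2 RPKM to 1.12, 2.86, 0.21 and 0.58, a difference of 3.87 ± 1.42 (SE, limma adjusted p = 0.137) and of 4.63 ± 0.87 without replicate 4 (limma adjusted p = 2.51e-06). The reads of Hoxb2 were 4, 8, 6 and 0 at day 2 and 226, 959, 8 and 90 at day 2.5, in replicates 1 to 4. In both genes replicate 2 was the highest library of day 2.5. Replicate 4 of day 2 is listed highest of its day in both, but only at the value of an unread gene.

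Hoxd1, which is first in the HoxD cluster, had a smaller difference than Hoxb1. It was at -2.03, -1.88, -2.06 and 0.48 log2 RPKM at day 2, the last without a read, and at 0.04, -0.05, 0.70 and -1.01 at day 2.5. The difference was 1.29 ± 1.42 (SE, limma adjusted p = 0.706), and 1.91 ± 0.87 without replicate 4 (limma adjusted p = 0.0486). The latter call was lost when day 2.5 replicate 3 was also left out.

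Counted by position, most calls lay among the anterior and middle genes of the clusters. Without day 2 replicate 4, limma called 11 of 12 genes of Hox1 to Hox4, 11 of 15 of Hox5 to Hox9 and 1 of 12 of Hox10 to Hox13, the last being Hoxa13, against 59% of all Hox genes, with median differences of 3.16, 3.20 and 1.09 against 2.36 over all 39. With all 8 libraries the medians were 2.09, 2.12 and -0.32 and the calls 1, 0 and 0. By cluster, 8 of 11 HoxA genes, 9 of 10 HoxB, 2 of 9 HoxC and 4 of 9 HoxD genes were called without that library. These counts describe the genes on these values and were not compared by a test.

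The depth of the libraries moves with these differences. Hoxc11, Hoxc12 and Hoxd12 were unread in all 8 libraries, and their listed values still differ by -1.07 with all libraries and by 0.35 without day 2 replicate 4, since a gene without a read is listed by depth alone. The differences of the called genes stand beside that 0.35. The second shallow library, day 2.5 replicate 3, was unread in 23 Hox genes, and all of these except Hoxd13 are listed there above replicates 1 to 3 of day 2. With both shallow libraries left out 22 genes were called, 21 of them among the 23. Hoxa13 and Hoxd1 were lost and Hoxc13 was gained, at 1.79. With all 8 libraries, unread genes set to 0 RPKM and log2(RPKM + 0.1) taken, 15 of the 23 were called, 7 of Hox1 to Hox4, 7 of Hox5 to Hox9 and 1 of Hox10 to Hox13.

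**Figure D4:**
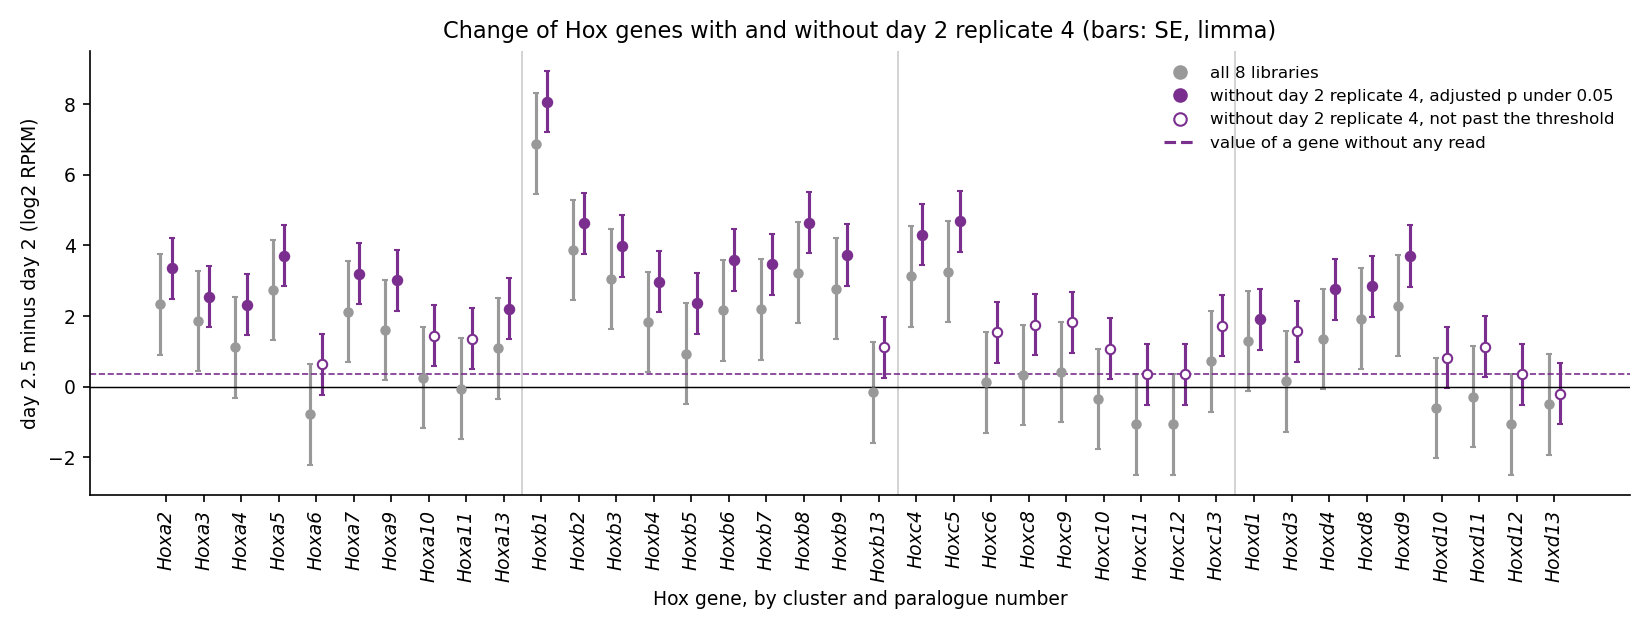
Difference between day 2.5 and day 2 for the Hox genes, in log2 RPKM (vertical axis), with limma standard errors as bars. Grey points use all 8 libraries, purple points leave out day 2 replicate 4 and are filled where the adjusted p is under 0.05. The dashed line at 0.35 is the value of a gene without any read, and the filled points lie above it mostly in Hox1 to Hox9.

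In the HoxA cluster, Hoxa5 and Hoxa2 were among the genes with the highest levels at day 2.5. Hoxa5, which patterns the cervical and thoracic region, was at -4.85, -4.70, -0.75 and 0.47 log2 RPKM at day 2 and at 0.03, 1.36, -0.90 and 0.62 at day 2.5, and replicate 3 of day 2, with 15 reads, overlapped with the later day. Its difference was 2.73 ± 1.42 with all libraries (SE, limma adjusted p = 0.243) and 3.71 ± 0.87 without replicate 4 (limma adjusted p = 0.000118). Hoxa2, a regulator of the second pharyngeal arch, went from -5.77, -2.30, -2.57 and 0.55 to -0.52, 1.65, -1.97 and 0.06. The difference of Hoxa2 was 2.33 ± 1.42 with all libraries (SE, limma adjusted p = 0.382) and 3.35 ± 0.87 without replicate 4 (limma adjusted p = 0.000443), and with unread genes at 0 RPKM and log2(RPKM + 0.1) it was not called (limma adjusted p = 0.152). The day 2.5 replicate 3 value of Hoxa2 is that of an unread gene.

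In the HoxB cluster the gene with the third highest level was not a neighbour of Hoxb1 and Hoxb2 but Hoxb9, which acts in the thoracic region. It was at -2.72, -3.57, -5.11 and 0.01 log2 RPKM at day 2 and at 0.13, 0.97, -0.77 and -0.62 at day 2.5, in 12, 3, 1 and 0 reads and then 84, 190, 3 and 29. The difference was 2.77 ± 1.42 with all libraries (SE, limma adjusted p = 0.243) and 3.73 ± 0.87 without replicate 4 (limma adjusted p = 0.000118), when the days did not overlap. Hoxb8 and Hoxb3 differed by 3.23 and 3.05 with all libraries, when neither was called, and by 4.64 and 3.98 without replicate 4. Hoxb6 held 0 reads at day 2 and 79 at day 2.5, which at these depths is at least 17.7-fold higher, taking 3 reads over all 4 libraries as the floor for day 2. Such bounds cover counting error only.

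The HoxC genes were barely read at day 2, with 16 reads in all, against 447 at day 2.5. Hoxc5 had 0 reads in all 4 libraries at day 2 and 77, 50, 1 and 28 at day 2.5, at least 34.9-fold higher on the same floor. In log2 RPKM it was at -6.72, -5.57, -5.52 and -0.25 at day 2, all values of an unread gene, and at -0.26, -1.22, -2.62 and -0.93 at day 2.5. Hoxc4, its anterior neighbour, went from -6.45, -3.57, -4.11 and 0.02 to 0.13, -0.56, -1.35 and 0.14, a difference of 3.12 ± 1.42 with all libraries (SE, limma adjusted p = 0.186) and of 4.30 ± 0.87 without replicate 4 (limma adjusted p = 1.16e-05). Hoxc13, at the posterior end, had the third highest level of the cluster at day 2.5. It stood at -6.39, -2.50, -3.04 and 0.08 at day 2 and at -1.61, -2.54, -2.44 and -2.41 at day 2.5, and the days overlapped. The difference was 0.72 ± 1.42 with all libraries (SE, limma adjusted p = 0.858) and 1.73 ± 0.87 without replicate 4 (limma adjusted p = 0.0707).

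In the HoxD cluster, Hoxd8 and Hoxd13 were next to Hoxd1 in level. Hoxd8 was at -3.59, -5.25, -2.39 and -0.08 log2 RPKM at day 2 and at -1.27, -1.84, -0.44 and -0.04 at day 2.5, a difference of 1.93 ± 1.42 with all libraries (SE, limma adjusted p = 0.456) and of 2.85 ± 0.87 without replicate 4 (limma adjusted p = 0.00278). Hoxd13, a gene of limb and genital development, was not called in either direction. It was at -0.42, -0.19, -2.74 and 0.07 at day 2 and at -1.08, -0.97, -2.45 and -0.78 at day 2.5, in 57, 30, 5 and 0 reads and then 35, 48, 0 and 25. Its difference was -0.50 ± 1.42 with all libraries and -0.20 ± 0.87 without replicate 4 (SE, limma adjusted p = 0.815), and the sign turned to 0.18 without both shallow libraries, to 0.054 with unread genes at 0 RPKM and log2(RPKM + 0.1), and to 0.24 with replicate 4 lowered to the depth of its factor column. In Hoxd13 it was replicate 3 that was lowest on both days.

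Over all Hox genes, replicates 1 to 4 of day 2 held 203, 192, 201 and 9 reads and those of day 2.5 held 3259, 11685, 234 and 2256, at the unequal depths given above. Replicate 2 held most of the reads of day 2.5, and the shallow replicate 3 held more than any library of day 2. Of the 39 genes, 27 had a read in any day 2 library and 36 in any of day 2.5. The interaction of genotype and day passed the threshold in 0 of 39 Hox genes (0%), with 0 at an unadjusted p under 0.05 and a lowest limma adjusted p of 0.577. In maternal null cells Hoxb1 rose by 8.0 log2 units, beside the wild-type 6.89 with and 8.08 without replicate 4. With all 8 wild-type libraries, the step was larger in maternal null cells in 37 of the 39 Hox genes. Limma called 25 of the genes higher and 0 lower in the maternal null cells alone. The wild-type steps in that comparison include day 2 replicate 4, whose unread genes are listed high. The 37 include Hoxc11, Hoxc12 and Hoxd12, which were unread in all 8 wild-type libraries. Without that replicate the wild-type step was the larger in, for example, Hoxa5 (3.71 against 2.93) and Hoxc4 (4.30 against 3.18). It stayed the smaller in others, such as Hoxb9 (3.73 against 5.80) and Hoxb3 (3.98 against 5.39). The 37 thus depend on that replicate. The interaction had a standard error of 1.82 for each gene, and leaving out day 2 replicate 4 gave 0 calls as well. A Hox gene that misses the threshold is therefore not shown to step alike in both genotypes.

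The step can be set among the other wild-type days of the course, in which CHIR99021 stayed in the medium after day 2 and GDF11 was added from day 3. Tbra began at 0.12 ± 0.66 log2 RPKM at day 0 (SD, n = 4) and averaged -2.76 ± 0.76 at day 1 (n = 3) and -2.56 ± 1.09 at day 2. Its mean was then 6.60 ± 0.61 after 12 h of CHIR99021, 7.17 ± 0.54 on day 3 and 6.18 ± 0.44 on day 4. Axin2 was at 0.40 ± 0.39, 4.58 ± 0.52, 4.70 ± 0.44 and 4.22 ± 0.86 from day 2 to day 4. In both genes the ranges of day 2.5 and day 3 overlapped. Wnt3a and Fgf8, by contrast, had higher means at day 3 (2.79 ± 1.7 and 3.72 ± 0.33) than after 12 h (-1.04 ± 2.98 and 1.42 ± 1.35).

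Nanog averaged 6.05 ± 0.31 at day 0 and 3.41 ± 0.95 at day 2, then 5.26 ± 0.78 after 12 h of CHIR99021 and 3.77 ± 0.67 on day 3. Sox2 had a lower mean on each later day, with 6.93 ± 0.12 at the start, 4.99 ± 0.97 on day 2, 4.58 ± 0.73 on day 2.5 and 1.88 ± 0.69 on day 4. Hoxb1 averaged -2.81 ± 0.94, -3.01 ± 0.81 and -3.41 ± 2.44 on days 0, 1 and 2 and 3.48 ± 0.79 at day 2.5. The day 2 value includes replicate 4, in which Hoxb1 was unread, and was -4.60 ± 0.66 without it. Differences between days other than 2 and 2.5 are given as values and were not tested.

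**Figure D5:**
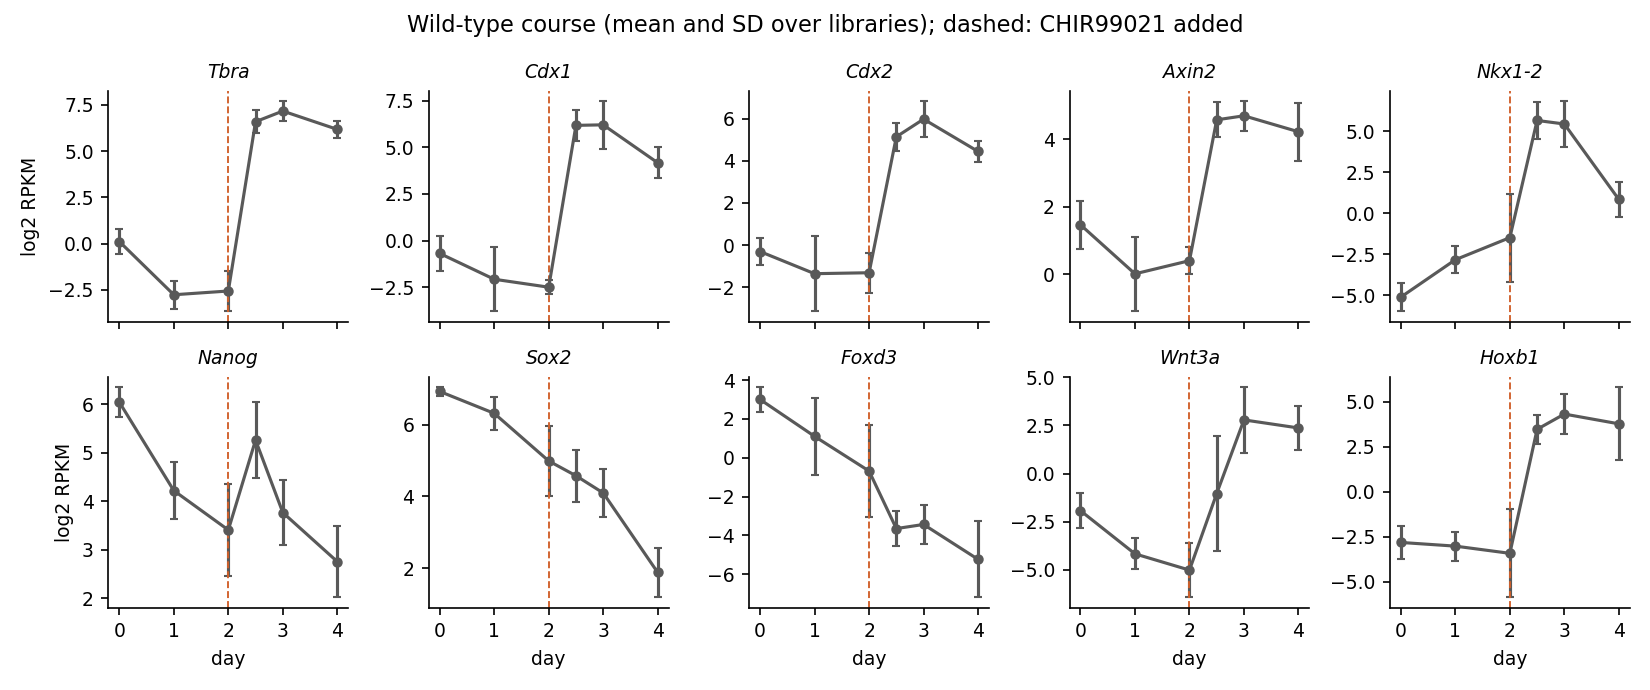
Mean and SD over the wild-type libraries (n = 3 at day 1 and 4 on the other days) of log2 RPKM (vertical axes) against the day of differentiation (horizontal axes) for 10 genes. The dashed line marks the addition of CHIR99021 at day 2. The day 2 point of Hoxb1 includes replicate 4, in which the gene was unread. Tbra, Cdx1, Cdx2, Axin2, Nkx1-2 and Hoxb1 step up between day 2 and day 2.5, Nanog has a peak at day 2.5 of 5.26, and Sox2 and Foxd3 have lower means at day 2.5 than at day 2, while Wnt3a has its highest mean at day 3.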

How the data were processed

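RNA-seq libraries were grouped by their titles. The submitters' processing notes name Trim Galore 0.4.4, and reads were mapped to GRCm38.p6 with HISAT2 2.0.5. The authors then quantified them in SeqMonk and deposited log2 RPKM values, corrected for library size and transcript length, for 34 factors and 39 Hox genes. The count file of the series was not used. Whole reads were worked back from the Hox values by finding the depth of each column at which values become whole: 312 values were converted, and all 301 under 200 reads came within 0.05 of a whole read or of the 0.9 that stands for no read. Reads were recovered in the same way for 16 factor genes. Total depths are approximate and use GENCODE M21 exon lengths. Precision is limited where libraries hold few reads.

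Differences were fitted with limma 3.58.1 in R 4.3.3 (lmFit and eBayes, on the deposited values without a pseudocount), with Benjamini-Hochberg adjustment over each table at 0.05. SE stands for limma's standard error and SD for the spread over libraries. In the Hox table limma drew every gene's variance to a common value, so all genes have the same SE. Their p-values therefore rest on a spread pooled over the Hox genes, which are not independent where unread genes are listed by depth. Genotypes were compared by an interaction term. Alternatives were log2(RPKM + 1), log2(RPKM + 0.1), a mean log2 RPKM above 0, each library left out, line 1 alone, the replicate number as a block, an exact two-sided permutation test, both tables in 1 fit and all wild-type days in 1 fit. Chosen after the data were seen were both shallow libraries left out, centring on Gsk3b, unread genes set to 0 RPKM on the log2(RPKM + 0.1) scale, and the Hox values of day 2 replicate 4 lowered by 2.96 log2 units to the depth of its factor column.

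Values of every library were given for called genes without overlap, for named NMP and pluripotency genes, and for Hoxb1, Hoxd1 and the 3 most expressed Hox genes of each cluster; others are given by range, and a further few (Foxd3, Dkk1, Gbx2, Hoxb3, Hoxb6, Hoxb8) were named after their values were seen. The libraries compared, the genes named and the lists were chosen with earlier results of these data known. Promoter windows are from RefSeq (GRCm38.p6), with entries for 23 factor and 22 Hox genes. The values of 1 Hox gene are not reported here, in the text or the plots, although it is in the counts over all Hox genes.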

Additional observations from a re-analysis of the deposited data

Results flagged for a closer look

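In a group of 4 libraries, a value was singled out where its gap to the nearest other value relative to the group's range exceeded Dixon's 95% critical value for 4 samples. Of 68 factor groups 3 were singled out and of 56 Hox groups 6, where chance alone gives about 1 in 20. Among the factors, Nanog in day 2.5 replicate 2 was high (6.43 against 4.88 log2 RPKM for the next, ratio 0.985), Pou5f1 in day 2 replicate 3 was low (4.88 against 8.01, ratio 0.851) and Gdf3 in day 2.5 replicate 2 was low (2.07 against 3.30, ratio 0.892). Among the Hox genes, day 2 replicate 4 was high without a read in Hoxb3 (ratio 0.843), Hoxb8 (0.835), Hoxd1 (0.930) and Hoxa9 (0.835). Hoxc13 was high in day 2.5 replicate 1 (-1.61 against -2.41, ratio 0.862), and Hoxb6 was low in day 2.5 replicate 4 (-4.09 against -1.12, ratio 0.859), where it had 2 reads.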

How the results depend on the processing

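The factor calls were steadier than the Hox calls. Across 17 settings, leaving out the permutation test and the filter on low means, 7 factor genes (Axin2, Cdx1, Cdx2, Fgf8, Nkx1-2, Tbra and Wnt5b) were called each time. The 13 genes higher became 9 to 13 with 1 library left out and 8 with a mean log2 RPKM above 0. The 1 gene lower became 0 to 1 with 1 library left out, and 0 with log2(RPKM + 1), with log2(RPKM + 0.1), with the filter, with both tables in 1 fit and with the replicate block. With 4 against 4 libraries the exact permutation test cannot go below p = 0.0286 and after Benjamini-Hochberg adjustment called 0 genes higher or lower in either table, with 11 factor and 3 Hox genes higher and 0 lower at an unadjusted p under 0.05. With the replicate number as a block 12 factor genes were higher and 0 lower, and 1 Hox gene was higher. The deviations of same-numbered libraries correlated at 0.29, 0.15, -0.14 and -0.10 in the factor table for replicates 1 to 4. In the Hox table they correlated at -0.16, 0.21, -0.26 and -0.28. No clear pairing by number was seen, but 4 libraries a day are too few to exclude it. By the titles, replicate 4 is line 2 on both days.

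The 1 Hox gene called became 3 with log2(RPKM + 1), with log2(RPKM + 0.1) and with both tables in 1 fit, 2 of 2 left by the filter, 7 with all wild-type days in 1 fit, 15 with unread genes at 0 RPKM on the log2(RPKM + 0.1) scale, 19 with day 2 replicate 4 lowered by the depth gap, 22 without both shallow libraries, 24 in line 1 alone, and 1 to 23 with 1 library left out, 23 being without day 2 replicate 4. The limma counts of genes with a different step between genotypes were 0 in each setting run, the replicate block included.

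Of the values for single factor genes, 16 changed sign, all in genes that were not called. With 1 library left out, Pou5f1 ran from -0.22 to 1.00, Zfp42 from -0.42 to 0.061, Tdgf1 from -0.31 to 0.37, Dppa3 from -0.65 to 0.073, Nr0b1 from -0.35 to 0.31, Pecam1 from -0.34 to 0.0022, Wnt4 from -0.97 to 0.012, Wnt7b from -0.19 to 0.54 and Gsk3b from -0.097 to 0.26. Without both shallow libraries Nr0b1 was at -0.41, Tdgf1 at -0.078 and Wnt7b at -0.21, with centring on Gsk3b Tdgf1 was at -0.018, and in line 1 alone Gsk3b was at -0.0050. Among the Hox genes, log2(RPKM + 1) gave -0.082 for Hoxc13, -0.079 for Hoxa4, -0.037 for Hoxa9, -0.11 for Hoxb5 and -0.071 for Hoxd4, and log2(RPKM + 0.1) gave -0.016 for Hoxb5. Hoxd13 was at 0.18 without both shallow libraries, 0.054 with unread genes at 0 RPKM on that scale and 0.24 with replicate 4 lowered. With 1 library left out Hoxd13 ran from -1.14 to -0.12, Hoxc13 ran from -0.43 to 1.73 (1.79 without both shallow libraries), and Hoxc11, Hoxc12 and Hoxd12 each from -2.01 to 0.35, and these 3 were at 0.45 in line 1 alone. The causes were not tested. Depth limits the Hox genes, of which 12 of 39 had 0 reads at day 2.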
